A study of Mus musculus with 6 samples.

Results

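CXC chemokines are small secreted proteins that direct the movement of leukocytes, and 9 of them were examined in tumors grown from B16 cells, a mouse melanoma line that can be transplanted. The 9 genes were taken by symbol and fall into 3 classes: the interferon-induced ligands Cxcl9, Cxcl10 and Cxcl11, the neutrophil attractants Cxcl1, Cxcl2 and Cxcl5, and the homeostatic ligands Cxcl12, Cxcl14 and Cxcl16. Of these 9, 7 had a probe that could be named here, with 13 probes in all, and 11 of those probes were detected (detection p under 0.05 on at least 3 of the 6 arrays). This left 6 chemokines among the 10523 genes tested. Cxcl2 did not pass the detection filter. Cxcl5 and Cxcl11 had no named probe in the annotation at hand, which covered only part of the array, and were not analysed here. Cxcl11 is annotated as a transcribed pseudogene in the C57BL/6J reference of RefSeq.

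Large tumors, with an area of 70 to 80 mm2, were set against small tumors of 10 to 20 mm2. Both were taken on day 8 from C57BL/6 mice that had received 400000 cells each, and the labels name no drug, antibody or genetic change in either group. There were 3 arrays per group, each numbered 1 to 3, and nothing in the labels says whether the numbers stand for separate mice, so p-values reflect only how far these samples scatter, which may be technical. The RNA came from whole dissected tumors, so host leukocytes, vessels and any adjoining tissue contributed to it beside the tumor cells, and in such bulk samples fewer cells of a type and less RNA per cell cannot be told apart.

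The interferon-induced ligands are switched on by interferon-gamma and draw activated T and NK cells through the receptor Cxcr3. The neutrophil attractants are switched on by interleukin-1, tumor necrosis factor and other signals that act through NF-kB, and they bind Cxcr2. The homeostatic ligands are made without inflammation by stromal, epithelial and myeloid cells: Cxcl12 binds Cxcr4 and holds leukocytes and progenitors in place, Cxcl14 is abundant in skin epithelium, and Cxcl16 is a membrane-bound ligand of Cxcr6 that can be shed.

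Promoters are shown for the 2 interferon-induced ligands that were measured and, for contrast, for the neutrophil attractant that was measured, because the classes differ in the signals they answer to. RefSeq windows in GRCm38.p6 were at hand for 6 of the 9 genes, and each sequence is the 250 bases before the gene start, 5′ to 3′ on the gene's strand. Cxcl9 lies at chr5:92328080-92328329 on the minus strand, Cxcl10 at chr5:92348890-92349139 on the minus strand and Cxcl1 at chr5:90890995-90891244 on the plus strand. Capitals mark matches, on either strand, to the interferon-stimulated response element core (ISRE-like, a pair of GAAA blocks 2 bases apart), a short NF-kB-like motif (GGGNNTTCC) or the NF-kB consensus, the last 2 of which can overlap.
Cxcl9: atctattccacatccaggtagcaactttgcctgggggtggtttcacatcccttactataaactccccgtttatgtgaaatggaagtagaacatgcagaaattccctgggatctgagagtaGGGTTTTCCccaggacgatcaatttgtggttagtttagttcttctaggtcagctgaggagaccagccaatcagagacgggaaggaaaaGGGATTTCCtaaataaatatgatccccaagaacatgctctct
Cxcl10: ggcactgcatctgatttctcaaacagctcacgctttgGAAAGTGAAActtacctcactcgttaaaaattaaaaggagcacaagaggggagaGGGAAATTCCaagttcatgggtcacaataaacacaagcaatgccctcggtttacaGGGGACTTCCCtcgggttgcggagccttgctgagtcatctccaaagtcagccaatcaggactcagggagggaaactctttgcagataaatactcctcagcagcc
Cxcl1: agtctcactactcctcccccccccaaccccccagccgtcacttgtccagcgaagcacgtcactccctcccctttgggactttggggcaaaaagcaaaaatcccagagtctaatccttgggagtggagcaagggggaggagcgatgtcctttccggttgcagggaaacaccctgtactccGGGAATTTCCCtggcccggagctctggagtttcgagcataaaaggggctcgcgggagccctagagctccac

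The Cxcl10 window held the interferon response motif from 213 to 204 bases before the start, and 2.98% of all 32851 promoter windows of that length held one, that of Cxcl14 among them. The Cxcl10 window also held the NF-kB consensus, beginning 159, 104 and 103 bases before the start, the last 2 overlapping. The Cxcl9 window held 2 short NF-kB-like matches, beginning 130 and 42 bases before the start, against a share of 4.98% of all windows with at least one. The Cxcl1 window held the NF-kB consensus from 71 bases before the start, and so did the Cxcl2 window from 97 bases before it, where 7.25% of all windows did. The Cxcl12 window held none of these 3 motifs. A match describes these letters and does not show that a factor binds there.

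Cxcl9 was the chemokine with the clearest difference. On the log2 intensity scale, after background correction and quantile normalization, its probe (ILMN_1215862) read 8.25, 9.19 and 9.07 in large tumors and 10.47, 11.82 and 12.32 in small tumors. Every large tumor lay below every small tumor, and small replicate 1 was the lowest of its group. Means were 8.84 ± 0.51 in large and 11.54 ± 0.95 in small tumors (SD, n = 3 each). The log2 fold change, large minus small, was -2.70 ± 0.49 (SE, 95% interval -3.86 to -1.54), or 6.49-fold lower, with an adjusted p = 0.0456 by limma over all genes. In the deposited signals, before any normalization, the probe read 459.5, 819.9 and 690.6 in large tumors, against 883.6, 3531 and 4647 in small tumors, and there too the groups did not overlap.

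Of the 6 tested chemokines, 1 (Cxcl9) was called, and it was lower, where 1.68% of all genes tested were called lower. Calls in either direction made up 2.47% of all genes, 83 higher and 177 lower, a split that was 179 higher and 225 lower when signals were quantile-normalized but not background-corrected. The call stood near the threshold and depended on single arrays. Leaving out a large tumor gave a limma adjusted p of 0.0944 (replicate 1), 0.144 (replicate 2) or 0.143 (replicate 3). Leaving out a small tumor gave 0.0677 (replicate 2) or 0.135 (replicate 3), and the log2 fold change of Cxcl9 stayed between -2.87 and -2.31 in these 5 cases. Without small replicate 1, the dimmest array, the log2 fold change was -3.23 (limma adjusted p = 0.0191).

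Cxcl10, the other measured interferon-induced ligand, read 9.06, 8.83 and 9.06 in large tumors and 9.71, 9.82 and 10.47 in small tumors (probe ILMN_3142803). The groups did not overlap, and the 3 large tumors lay close together. Means were 8.98 ± 0.13 in large and 10.00 ± 0.41 in small tumors (SD, n = 3 each). The log2 fold change was -1.02 ± 0.21 (SE, 95% interval -1.52 to -0.51) and missed the threshold (limma adjusted p = 0.0616, unadjusted p = 0.00219). A second, dimmer probe of the gene gave -1.25 ± 0.20, which passed when each probe was tested on its own (limma adjusted p = 0.033 over 16256 probes). In the deposited signals small replicate 1 read 556.6, below the 736.9, 659.0 and 683.3 of the large tumors, so for Cxcl10 the separation of the groups appears only after normalization.

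**Figure D1:**
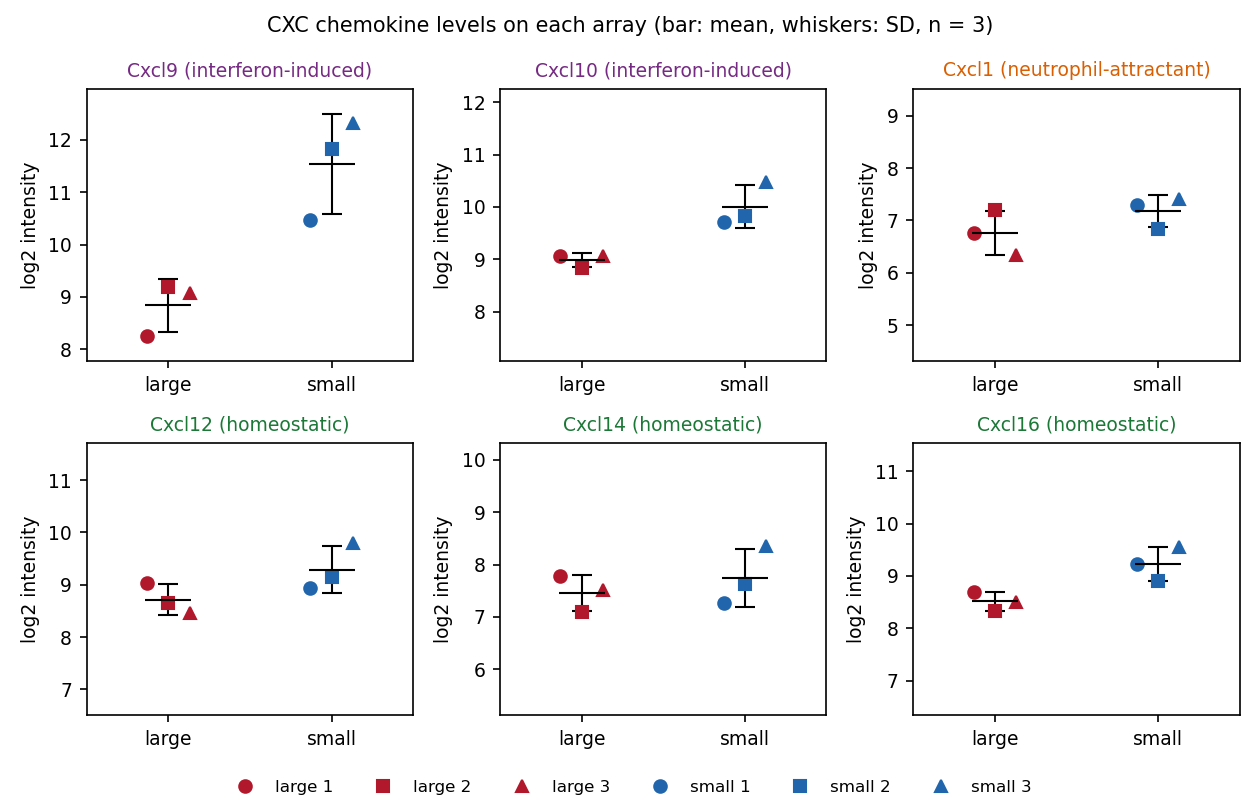
Log2 intensity of the 6 tested CXC chemokines on each array, in large tumors (left, red) and small tumors (right, blue), with mean and SD of 3 arrays per group; each panel covers an equal number of log2 units around its own centre. Cxcl9, Cxcl10 and Cxcl16 have groups that do not overlap, and the distance between means is widest for Cxcl9 (8.84 in large and 11.54 in small tumors).

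Among the neutrophil attractants only Cxcl1 could be tested. Cxcl1, which recruits neutrophils through Cxcr2, read 6.76, 7.19 and 6.34 in large tumors and 7.30, 6.84 and 7.41 in small tumors (probe ILMN_2763245). The groups overlapped, since large replicate 2 lay above small replicate 2. Its log2 fold change was -0.42 ± 0.25 (SE, 95% interval -1.01 to 0.17, limma adjusted p = 0.367), an interval that holds no change as well as a fall to about the size seen for Cxcl10. Leaving out large replicate 3 gave -0.21 for Cxcl1, and leaving out large replicate 2 gave -0.63. Both probes of Cxcl2, a close relative of Cxcl1 with the same receptor, were near background, with deposited signals between 105.3 and 138.6. One was detected on 1 array, small replicate 1, and the other on 2, large replicate 2 and small replicate 1. Without the detection filter Cxcl2 had a log2 fold change of -0.22 ± 0.40 (limma adjusted p = 0.79), so no difference was detectable at this signal.

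The 3 homeostatic ligands had negative log2 fold changes, and 0 of 3 were called by limma (1 of 3 at an unadjusted p under 0.05, as were 22.5% of all genes). Cxcl16 read 8.70, 8.34 and 8.50 in large tumors and 9.24, 8.90 and 9.55 in small tumors (probe ILMN_2687586). Its groups did not overlap, and its log2 fold change was -0.71 ± 0.19 (SE, 95% interval -1.16 to -0.27, limma adjusted p = 0.0955, unadjusted p = 0.00705). Its other, dimmer probe gave -0.10 ± 0.18, with signals of 136.8 to 178.5 against 421.4 to 799.2 for the probe that was used. In the deposited signals of the used probe, small replicate 1 read 421.4, below the 594.7, 494.2 and 491.6 of the large tumors. The separation of the Cxcl16 groups thus appears only after normalization, as for Cxcl10.

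Cxcl12, which keeps Cxcr4-bearing cells in their niches, read 9.03, 8.66 and 8.45 in large tumors and 8.94, 9.14 and 9.79 in small tumors (probe ILMN_2658908). Large replicate 1 lay above small replicate 1, so the groups overlapped. The log2 fold change was -0.58 ± 0.25 (SE, 95% interval -1.18 to 0.03, limma adjusted p = 0.238), and it was -0.33 without small replicate 3. The 3 probes of Cxcl12 are annotated to 3 different transcripts of the gene and did not move alike: the other 2, with signals between 138.2 and 219.5, gave 0.04 ± 0.15 and -0.17 ± 0.24.

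Cxcl14, the skin chemokine, read 7.78, 7.09 and 7.51 in large tumors and 7.26, 7.63 and 8.35 in small tumors (probe ILMN_2760800). The groups overlapped widely, and the log2 fold change was -0.29 ± 0.30 (SE, 95% interval -1.01 to 0.43, limma adjusted p = 0.618). It was 0.01 without small replicate 3, the array with the highest reading. Its other probe gave -0.43 ± 0.32. Keratinocyte content varied far more than Cxcl14 did: the summed intensity of the 9 tested keratinocyte markers, of 12 listed, was 42680, 9472 and 499.9 in large tumors and 290.6, 23830 and 33930 in small tumors, with none of the 9 called by limma (0 at an unadjusted p under 0.05). Its part in the Cxcl14 values was not tested.

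**Figure D2:**
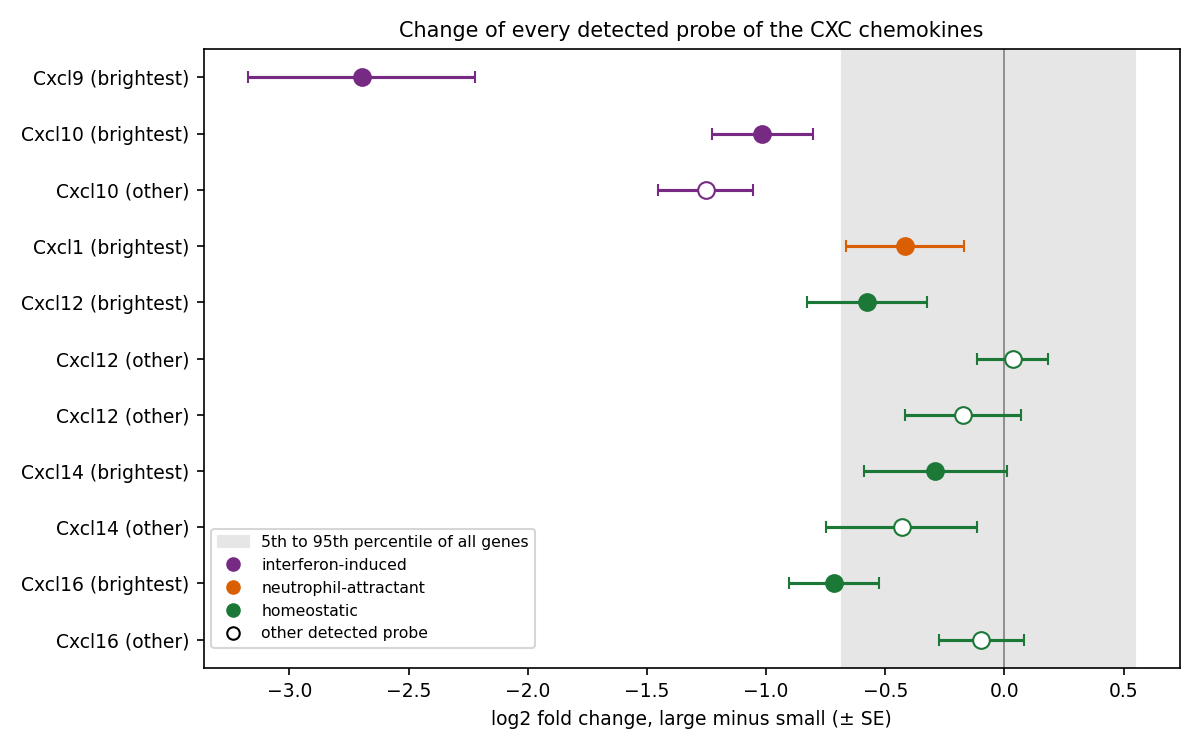
Log2 fold change, large minus small tumors, with its SE, for the 11 detected probes of the CXC chemokines; filled points are the brightest probe of each gene, which was the one tested, and the grey band runs from the 5th to the 95th percentile of all genes (-0.68 to 0.55). The 3 probes of Cxcl9 and Cxcl10 lie outside the band, as does the brighter probe of Cxcl16, while the probes of Cxcl12, Cxcl14 and Cxcl1 lie inside it.

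Side by side, the classes had median log2 fold changes of -1.86 for the interferon-induced ligands (2 tested), -0.42 for the neutrophil attractants (1 tested) and -0.58 for the homeostatic ligands (3 tested), against -0.000957 for all genes. The order of the last 2 classes is not settled, since the homeostatic median was -0.36 with the mean of all detected probes of a gene and -0.29 with every probe counted. All 6 log2 fold changes were negative, as were 50.1% of those of all genes, except that Cxcl14 was at 0.01 without small replicate 3. A dimmer probe of Cxcl12, not used for the gene, was at 0.04. In 3 of the 6 (Cxcl9, Cxcl10 and Cxcl16) the large tumors lay wholly below the small ones, which was so in 13.6% of all genes. Cxcl9 was the 9th lowest of all 10523 log2 fold changes, Cxcl10 was the 266th and Cxcl16 the 479th.

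Whether 2 chemokines of different classes changed unequally was examined in all 11 such pairs, by taking the difference of their log2 values within each array and comparing large with small tumors in an exact permutation test (two-sided, smallest possible p 0.1 with 3 against 3, so no pair could reach 0.05). The log2 change of Cxcl9 minus that of another gene was -2.28 for Cxcl1, -2.12 for Cxcl12, -2.41 for Cxcl14 and -1.98 for Cxcl16. In these 4 pairs the groups did not overlap (exact p = 0.1, adjusted p = 0.183 over the 11 pairs). The same held for Cxcl10 against Cxcl12 (-0.44) and against Cxcl14 (-0.73), but its difference from Cxcl1 (-0.60, exact p = 0.2) and from Cxcl16 (-0.30, exact p = 0.3) lay within overlapping groups. Cxcl1 did not separate from any homeostatic ligand (differences of -0.13 to 0.30, exact p = 0.5 to 0.7).

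Of 10 listed receptors and scavengers, 5 were tested and 0 were called by limma (0 at an unadjusted p under 0.05). Their median log2 fold change was 0.10. The list is wider than the chemokines examined here, since some of its members chiefly bind other chemokines. Cxcr3, the receptor of Cxcl9 and Cxcl10 on activated T and NK cells, read 7.42, 7.81 and 8.33 in large tumors and 6.90, 7.69 and 7.20 in small tumors, with overlapping groups and a log2 fold change of 0.59 ± 0.28 (limma adjusted p = 0.273). Cxcr4, the receptor of Cxcl12, was at 0.22 ± 0.25. The decoy receptors Ackr1, Ackr2 and Ackr4, which bind chemokines without signalling in the usual way, were at -0.45, 0.05 and 0.10, and the last 2 were below 0 (-0.12 and -0.18) when arrays were centred on their medians. Cxcr5 was not detected on any array, and Cxcr1, Cxcr2, Cxcr6 and Ackr3 had no named probe and were not analysed here.

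Other chemokines outside the CC family gave 0 calls among the 3 tested of 8 listed (limma, 1 at an unadjusted p under 0.05, as were 22.5% of all genes). Xcl1, a ligand that T and NK cells release to attract cross-presenting dendritic cells, read 5.01, 4.60 and 4.74 in large tumors and 6.27, 5.80 and 7.00 in small tumors, and was detected in 1 of the 3 large tumors. Its groups did not overlap, with a log2 fold change of -1.57 ± 0.30 (limma adjusted p = 0.0515). With 2 of the 3 large tumors below detection this size depends on the background correction, and it was -0.58 under quantile normalization alone. Pf4, the platelet CXC chemokine, was at -0.42 ± 0.44 (0.016 without small replicate 1), and Cx3cl1, the endothelial chemokine fractalkine, at -0.14 ± 0.17.

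Proteins that trim or release CXC chemokines gave 0 calls among 4 tested of 8 listed (limma, 2 at an unadjusted p under 0.05, as were 22.5% of all genes). Dpp4, the peptidase that clips the first residues of Cxcl10 and Cxcl12, read 5.88, 5.45 and 5.72 in large tumors and 6.87, 6.19 and 6.32 in small tumors (log2 fold change -0.78 ± 0.21, limma adjusted p = 0.098). Mmp9, a matrix protease that can cleave chemokines, read 8.81, 8.24 and 7.55 in large tumors and 7.15, 6.88 and 7.20 in small tumors (1.12 ± 0.30, limma adjusted p = 0.0995). The groups did not overlap in either gene, and the signs were opposite. Large tumors lay wholly below small ones, as for Dpp4, in 13.6% of all genes.

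Of 12 genes listed around the interferon-gamma signal to Cxcl9 and Cxcl10, 9 were tested. Of these 2 fell, where 1.68% of all genes were called lower, and 0 rose, and the median log2 fold change was -0.55. The list includes inhibitors of the signal and factors that other interferons use, so a lower value is not always a lower signal. Irf1, a transcription factor that interferon-gamma induces, read 10.16, 10.13 and 10.49 in large tumors and 11.56, 12.31 and 12.52 in small tumors, with a log2 fold change of -1.87 ± 0.26 (limma adjusted p = 0.0324). Irf8, a related factor of myeloid and dendritic cells, read 5.87, 5.90 and 6.08 in large tumors and 7.38, 7.35 and 7.67 in small tumors (-1.51 ± 0.13, limma adjusted p = 0.0161). In both genes the groups lay far apart relative to their spread, and over 18 processing alternatives Irf1 was called in 14 and Irf8 in 15. At an unadjusted p under 0.05, which 22.5% of all genes had, 6 of the 9 were lower and 2 were higher. The 2 higher ones were Ifngr1, a receptor chain for interferon-gamma (0.54 ± 0.18), and Jak2, a kinase of that receptor (0.34 ± 0.13), both named after their values were seen. The interferon-gamma transcript itself, Ifng, was below detection in the 3 large tumors and in small replicate 1, and was detected in small replicates 2 and 3. Its signals were near background. The highest deposited one, 132.6, was in large replicate 2, against 126.4 and 128.9 in small replicates 2 and 3. The part of Ifng in the Cxcl9 values was not tested.

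Of 20 genes of the interleukin-1, tumor necrosis factor, interleukin-17 and NF-kB route to the neutrophil attractants, 15 were tested, 1 rose, where 0.789% of all genes were called higher, and 0 fell, and the median log2 fold change was -0.31. The gene that rose was Il1rap, a co-receptor subunit needed for interleukin-1 signalling, which read 6.06, 6.16 and 6.11 in large tumors and 5.55, 5.31 and 5.54 in small tumors (0.64 ± 0.11, limma adjusted p = 0.0415). It was called in only 6 of 18 processing alternatives, with log2 fold changes of 0.24, under quantile normalization alone, to 0.69. The remaining 14 were not called, and 11 of the 15 had a negative log2 fold change, as did 50.1% of all genes. At an unadjusted p under 0.05, which 22.5% of all genes had in either direction, 6 of the 15 were lower and 2 were higher. Il1a, the gene named in the study's title, had no named probe and was not analysed here.

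**Figure D3:**
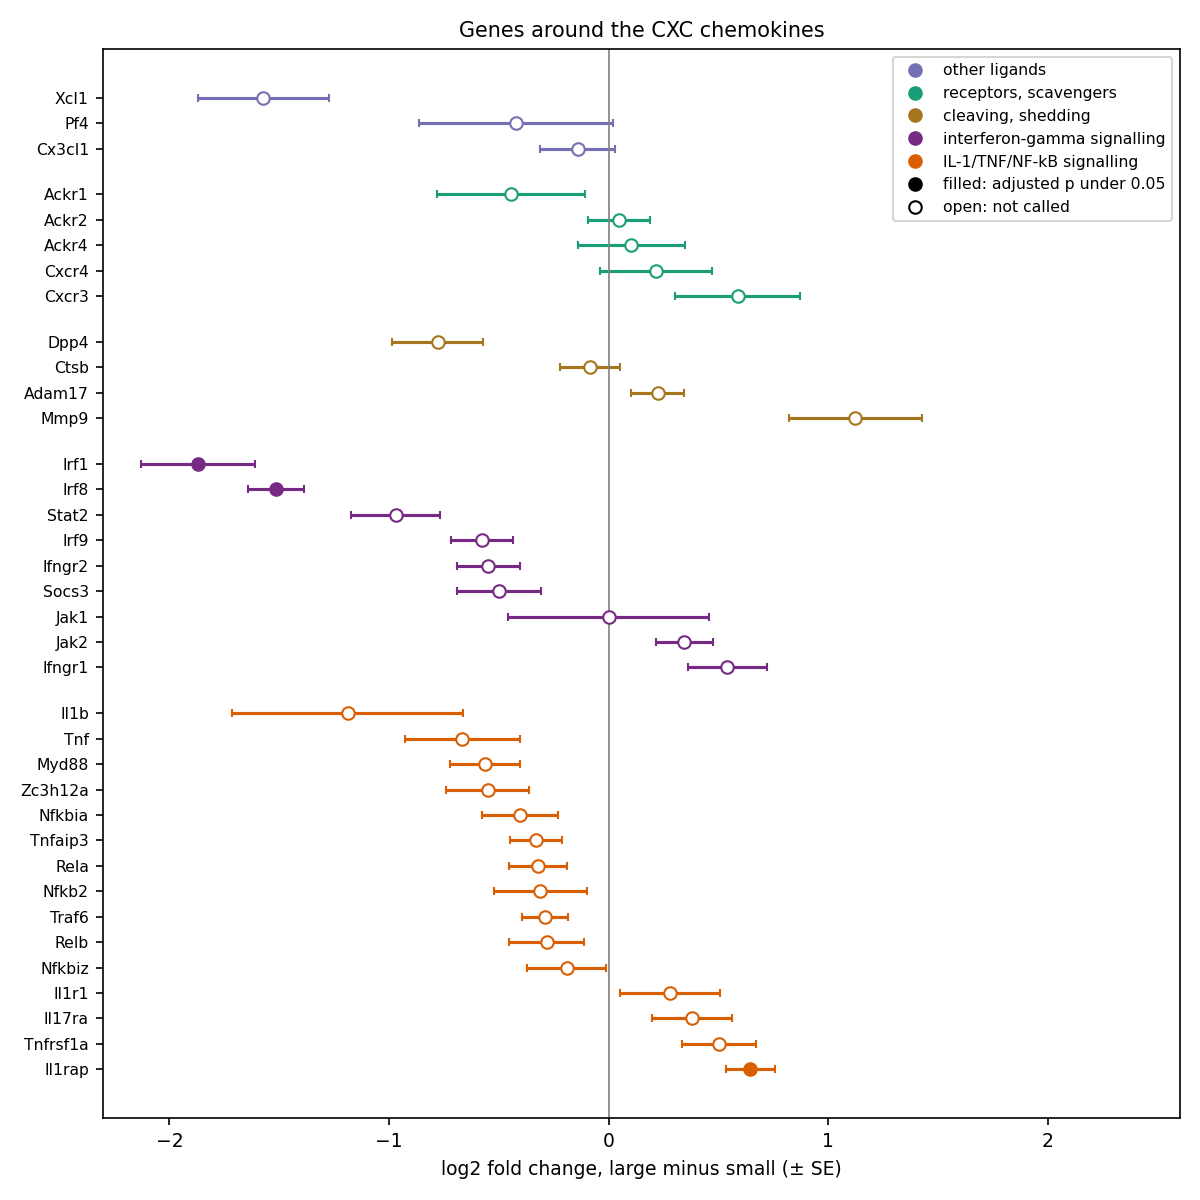
Log2 fold change, large minus small tumors, with its SE, for every tested gene of the 5 lists around the CXC chemokines; filled points are called at an adjusted p under 0.05. The called genes are Irf1 and Irf8 on the side of lower expression in large tumors and Il1rap on the other, and Cxcr3 lies to the right of 0 at 0.59.

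Cells that release interferon-gamma and cells that carry the receptors were followed by marker lists, given here as summed intensity of the tested markers. Of 14 T cell markers 7 were tested and 4 were called lower, where 1.68% of all genes were. Among them were Cd3d of the CD3 complex (log2 fold change -1.55 ± 0.21) and Cd6 (-1.47 ± 0.23), the latter detected in 2 of the 3 large tumors. Their size depends on the background correction: under quantile normalization alone they were at -0.76 and -0.59. Cd3d was called in 12 of 18 alternatives and Cd6 in 10 of 17. Zap70, a kinase of the T cell receptor, was not detected in any large tumor and was at least 1.51-fold lower. That bound applies only to the processing used here: under quantile normalization alone the log2 fold change of Zap70 was -0.27, and it was called in 6 of 16 alternatives. Zap70 and Cd2, both among the 4 called, passed the detection filter only through the small tumors. For these genes the filter itself favoured a lower value in large tumors. The T cell sum was 2460 to 2800 in large and 2225 to 2889 in small tumors, but most of it was 1 gene, Cd8b1, and without that gene it was 190.3 to 239.4 in large and 448.7 to 782.0 in small tumors. Of 9 NK and cytotoxic markers 3 were tested and 2 fell, Nkg7 (-1.70 ± 0.24) and Klrd1 (-1.15 ± 0.20). Under quantile normalization alone these were at -0.76 and -0.48, and Nkg7 was detected in 2 of the 3 large tumors. The NK and cytotoxic sum was 688.0 to 1212 in large and 1323 to 1837 in small tumors. Most of it was Prf1, which was not called (-0.67 ± 0.25, limma adjusted p = 0.182). Without Prf1 the sum was 65.44 to 103.2 in large and 215.2 to 282 in small tumors. The part of these cells in the Cxcl9 result was not tested.

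Cells that can make Cxcl9, Cxcl10 and Cxcl16 were followed the same way. Of 13 macrophage and monocyte markers 9 were tested and 1, Aif1 (-1.60 ± 0.25), was called lower, where 1.68% of all genes were. The macrophage and monocyte sum of 6299 to 8898 in large tumors overlapped that of 8060 to 13050 in small tumors. Of 9 dendritic cell markers 4 were tested, 3 had a negative log2 fold change and 1, Siglech, was called lower. Siglech was not detected in any large tumor and was at least 1.91-fold lower (log2 fold change -0.46 under quantile normalization alone). It passed the detection filter only through the small tumors, so the filter itself favoured a lower value in large tumors. Zbtb46 was on the other side, at 0.29 ± 0.14. The dendritic cell sum was 180.4 to 192.5 in large and 244.3 to 308.1 in small tumors. The part of macrophages and dendritic cells in the chemokine values was not tested. Of 12 neutrophil markers 4 were tested, and limma called 0 (unadjusted p under 0.05 in 0). Their sum of 281.4 to 4173 in large and 229.2 to 557.3 in small tumors was highest in large replicate 1. Much of it was S100a8 (log2 fold change 2.18 ± 0.97), and without that gene it was 104.0 to 1184 in large and 143.7 to 321.7 in small tumors, while Csf3r was at -0.42. The part of neutrophils in the Cxcl1 values was not tested. Markers of endothelium (5269 to 8285 in large and 6156 to 8704 in small tumors) and of fibroblasts and mural cells (7140 to 14750 in large and 8289 to 12380 in small tumors), which make Cxcl12, overlapped, with 0 of 9 and 0 of 10 called (limma, 0 and 0 at an unadjusted p under 0.05). Skeletal muscle markers moved with the groups: all 10 had a negative log2 fold change and 9 were called lower. Their sums were 8992 to 12760 in large and 26170 to 35240 in small tumors. The part of muscle content in the chemokine values was not tested. Markers of the melanocyte lineage that defines B16 cells were bright on every array, with sums of 113700 to 120300 in large and 103900 to 110200 in small tumors and 0 of 9 called (limma, 2 at an unadjusted p under 0.05).

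For each tested chemokine the genes with the most similar course over the 6 arrays were found by the root mean square difference of gene-centred log2 values. Nearest to Cxcl9 were Gbp2, Apol9b and Ifi47, at 0.32, 0.33 and 0.36, where the root mean square deviation of Cxcl9 from its own mean was 1.49. Gbp2 and Ifi47 encode interferon-induced GTPases. Nearest to Cxcl10 were Samhd1, Nod1 and Igfbp5 at 0.11, 0.13 and 0.13, against a deviation of 0.57 for Cxcl10. Samhd1, a nucleotide-cleaving antiviral enzyme, had a log2 fold change of -1.07 ± 0.20 (limma adjusted p = 0.0496), and Nod1, a sensor of bacterial cell wall, had -0.82 ± 0.20.

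Nearest to Cxcl16 were Rnf19b, Dnaaf3 and Tppp3 at 0.06, 0.07 and 0.07, against a deviation of 0.42. Nearest to Cxcl12 were Notch1, Vcam1 and Cish at 0.10, 0.11 and 0.12, against 0.42, and Vcam1, an adhesion molecule of activated endothelium, had a log2 fold change of -0.61 ± 0.18 (limma adjusted p = 0.122). Nearest to Cxcl1 were Pde1b, Ints8 and Piwil2 at 0.10, 0.12 and 0.12, against 0.37. For Cxcl14 they were 6430590A07Rik, Lratd1 and D030028A08Rik, each at 0.12, against 0.40. These distances describe 6 arrays that differ in tumor size and in muscle and skin content alike.

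**Figure D4:**
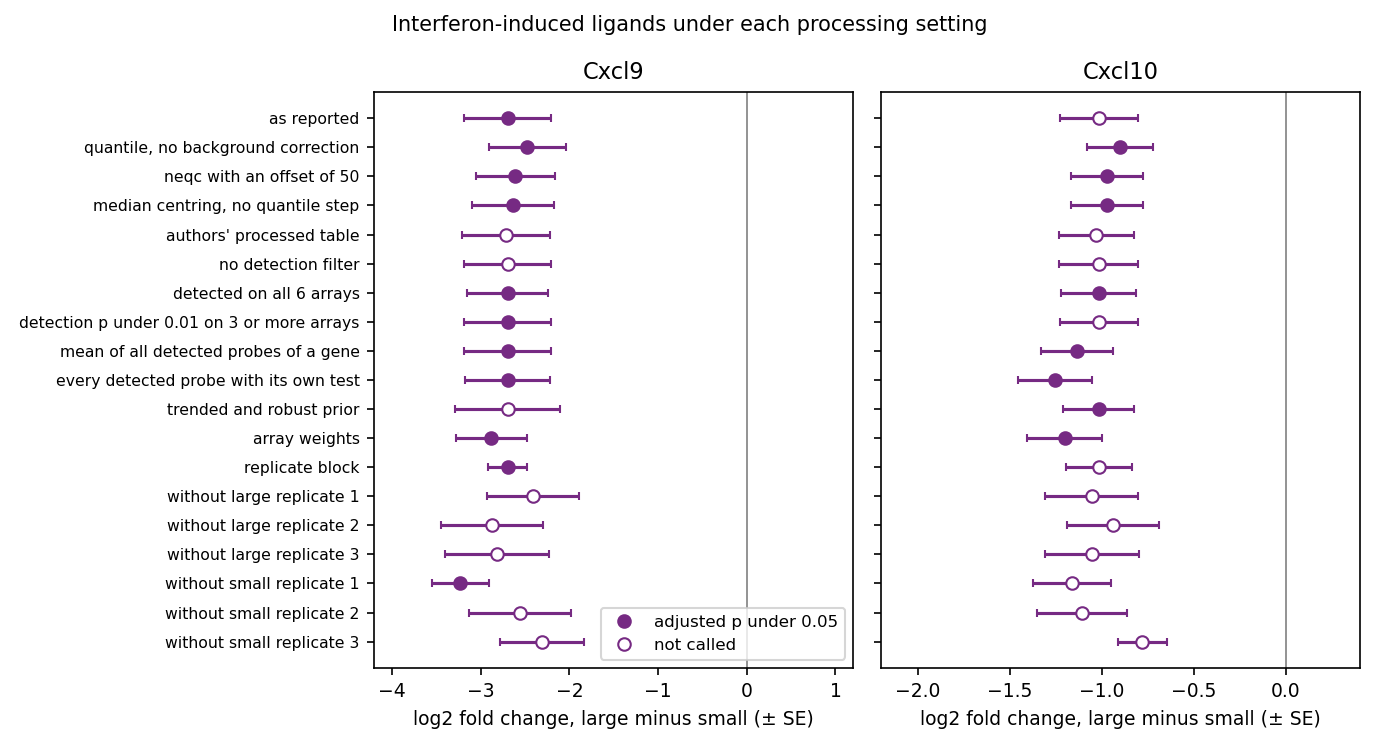
Log2 fold change, large minus small tumors, with its SE, of Cxcl9 (left) and Cxcl10 (right) as reported and under each of 18 processing alternatives; filled points have an adjusted p under 0.05. Cxcl9 stays between -3.23 and -2.31 and is called in 10 of the 18, and Cxcl10 stays between -1.25 and -0.78 and is called in 8. Where every probe was tested alone, the probe with the smallest p is drawn. For Cxcl10 that is its dimmer probe (-1.25, limma adjusted p = 0.033). Its brightest probe was not called there (-1.02, limma adjusted p = 0.0517).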

How the data were processed

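Total RNA (100 ng) of 6 B16 tumors was amplified, biotin-labelled and hybridised to Illumina bead arrays, per the labels' protocols. Per the file headers, the deposited values are a signal per probe and array, here read as linear intensity, and a deposited detection p-value. GenomeStudio made the values per the submitters' processing notes; no version is given in the sources used here. The arrays had lowest signals of 84.22 to 98.43, so no background had been subtracted. The authors also deposited their own processed intensity for 20346 of the 45281 probes, with a floor of 28.8 and an unstated normalization; it served as an alternative. Each of its columns correlated best with its own array (r at least 0.941 over probes, against at most 0.473 with another).

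Median signal was 116.7 to 128.3 in large and 104.2 to 115.0 in small tumors, and small replicate 1 was dimmest, with a 95th percentile of 949.1 against 1477 to 1997 elsewhere. The number of arrays limits the precision.

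Signals were background-corrected, quantile-normalized and set on the log2 scale with neqc (offset 16) of limma 3.58.1 in R 4.3.3. The 19120 probes with a detection p under 0.05 on at least 3 arrays were kept. Platform annotation, updated through RefSeq, named 16256 of them, and the brightest probe stood for each gene. This annotation was at hand only for the 20346 probes of the authors' table. A gene without a named probe may thus have probes elsewhere on the array. The alternative with no detection filter was bound to the same probes and held 11092 genes. Large and small tumors were compared with lmFit and eBayes, with no covariate, and p-values were adjusted by Benjamini-Hochberg over 10523 genes. On simulated data with 100 genes changed by 1 and 100 by 2 on the log2 scale among these genes, 63% and 91% were called. There were 8 false calls. The simulated noise was independent between genes, unlike variation that many genes share on an array, so these shares need not hold for the real data. No pair of arrays held the same values (0% of probes equal).

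The chemokines, lists and tests were chosen with earlier results of these data known. Genes named besides the 9 were taken from the other ligands and receptors, from the called genes of each other list (up to the 3 with the smallest p, or the 2 with the smallest p where none was called), and from the 3 genes nearest each chemokine. Ifng, Ifngr1, Jak2, Cd8b1, Cd2, Prf1 and Zbtb46 fall outside this rule and were chosen after their values were seen. Planned protein features were not analysed here. The letters of the NF-kB motifs were settled after the promoter sequences had been read.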

Additional observations from a re-analysis of the deposited data

How the results depend on the processing

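The 6 chemokines kept negative log2 fold changes in the 18 alternatives, except Cxcl14 without small replicate 3 (0.011). With every probe tested alone, a dimmer probe of Cxcl12 was also above 0 (0.035), although the gene's probe with the smallest p was not. Calls were less stable. The number of chemokines called, 1 as reported, was 2 in 8 alternatives: Cxcl9 and Cxcl10 under quantile normalization alone, an offset of 50, median centring without a quantile step, detection on all 6 arrays, the mean of a gene's probes, every probe tested alone or array weights, and Cxcl10 and Cxcl16 with a trended and robust prior (Cxcl9 limma adjusted p = 0.0807). It was 0 by limma with the authors' processed table (Cxcl9 adjusted p = 0.05015, 3 chemokines at an unadjusted p under 0.05) and with no detection filter (adjusted p = 0.05002, 3 unadjusted), and 0 to 1 when 1 array was left out (3 or 4 unadjusted). The interferon-induced median was -1.25 with every probe counted, where Cxcl10 has 2 probes. In that alternative a gene counted as called if any of its probes was. For Cxcl10 this was the dimmer probe (limma adjusted p = 0.033), while the brightest probe was not called (limma adjusted p = 0.0517). Over all genes, 260 calls became 404 under quantile normalization alone (no background correction), 392 with median centring, 402 with detection on all 6 arrays, 465 with every probe, 656 with the trended and robust prior, 574 with array weights and 0 to 300 without 1 array. With 0 calls, without large replicate 1 or large replicate 3, there were 2303 and 1591 genes at an unadjusted p under 0.05 (limma). The cause of these shifts was not tested. With the replicate number as a block (replicate block) there were 109 calls and 1 chemokine, Cxcl9 (limma adjusted p = 0.0314); same-numbered samples correlated at -0.55, -0.07 and -0.45 in their deviations from the group means, so the numbers are not known to pair samples. Other log2 fold changes near 0 changed sign. With median centring these were Ackr4 (-0.18), Ackr2 (-0.12), Kdr (-0.22) and Itga2b (-0.024), and with the authors' table Kdr (-0.022). Leaving out 1 array at a time gave ranges across 0 for Cxcl14 (-0.53 to 0.011), Pf4 (-0.79 to 0.016), Ackr4 (-0.14 to 0.35), Ackr2 (-0.054 to 0.17), Krt10 (-4.05 to 0.037), Krt15 (-1.57 to 0.023), 6430590A07Rik (-0.52 to 0.11), Lratd1 (-0.54 to 0.013) and D030028A08Rik (-0.38 to 0.021).

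Signal over background limits what can be said of Cxcl2, which was detected on at most 2 arrays.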
